A study of Mus musculus with 32 samples.

Results

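The clustered protocadherin genes are a family of neural cell adhesion genes that lie side by side in 3 clusters, alpha, beta and gamma, on mouse chromosome 18. Members were taken by their GENCODE symbol, which gave 58 of the 54532 genes in the count table: 14 in the alpha cluster, 22 in the beta cluster and 22 in the gamma cluster. All 58 were in the table, and 57 passed the filter on low counts that left 16610 genes for testing. The one left out was Pcdhb1, with a mean of 5.44 counts per mouse.

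Striatum from 32 mice at 6 months of age was sequenced as polyA-selected RNA, with 8 mice each of wild type (WT), Msh3-/-, zQ175 and zQ175:Msh3-/-, all on a C57BL/6J background and bred as littermates. zQ175 is a Huntington's disease model in which the mouse's own Htt gene carries a greatly expanded CAG repeat, and Msh3-/- mice lack MSH3, a mismatch repair protein known to drive the growth of such repeats in somatic cells. Each group held 4 males and 4 females, apart from zQ175:Msh3-/-, with 5 males and 3 females. The Msh3 line was made by CRISPR/Cas9 with guides in exons 3 and 8, and none of the 4 groups carries any other allele named in the labels.

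Each clustered protocadherin protein has an ectodomain of cadherin repeats that binds the same isoform on a facing membrane, and a neuron displays a set of isoforms that gives it a molecular identity. In the alpha and gamma clusters each gene is a large variable exon with its own promoter, spliced to 3 constant exons that encode a shared cytoplasmic tail, whereas the beta genes have no constant exons. Most variable promoters are chosen stochastically in each neuron, under the control of CTCF, cohesin and DNA methylation. The C-type members Pcdhac1, Pcdhac2, Pcdhgc3, Pcdhgc4 and Pcdhgc5 lie at the ends of their clusters and are regulated differently. The family is known for dendritic self-avoidance, for neuronal survival in the case of the gamma cluster, and for the wiring of serotonergic axons in the case of the alpha cluster.

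On GRCm38.p6 the alpha members spanned chr18:36930184-37187661, the beta members chr18:37264938-37524479 and the gamma members chr18:37661793-37841873, all on the forward strand. Of the 22 beta genes, 18 had a single exon, and between 0 and 1927 of a beta gene's exonic bases were shared with another annotated gene. Every alpha and gamma member shared exonic bases with another gene, from 2116 to 6267 of them. Pcdhga10 had 0 exonic bases of its own and still held a mean of 610 counts, and how reads on shared exons were assigned is not given in the sources used here. Which alpha or gamma member a read belongs to is therefore uncertain, whereas only 3 of the 22 beta genes shared exonic bases with another gene. One ID that GENCODE also calls Pcdha11 is named Pcdha10 here, after the RefSeq gene at its position.

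Libraries held between 12359347 and 25030335 counts, of which 0.125% to 0.159% fell on members. Levels within a gene are given as CPM, counts per 1000000 of the library, scaled by the trimmed mean of M-values. Msh3 itself lay at 22.9 to 27.5 CPM in WT and 22.8 to 27.4 in zQ175 mice, against 10.4 to 13.6 in Msh3-/- and 11.1 to 14.2 in zQ175:Msh3-/- mice, so that every mouse labelled Msh3-null was below every other mouse. Counts per gene do not separate the targeted exons from the rest. Of 8 spiny projection neuron markers, all were detected and 7 were lower in zQ175 than in WT mice, their summed level ranging from 5886 to 7240 CPM in WT and from 3324 to 4371 CPM in zQ175. In Msh3-/- mice it ranged from 5922 to 7519 CPM and in zQ175:Msh3-/- mice from 3447 to 4299 CPM. None of 6 pan-neuronal, 5 oligodendrocyte precursor, 8 microglial or 6 choroid plexus markers was called in zQ175 against WT. There 3 of 6 endothelial and 1 of 8 oligodendrocyte markers were lower and, of 8 astrocyte markers, 1 was higher and 1 lower. Between zQ175:Msh3-/- and Msh3-/- mice none of these endothelial, oligodendrocyte or astrocyte markers was called. The median endothelial log2 fold change was -0.18 there and -0.30 in zQ175 against WT. Markers of 2 tissues next to the striatum varied widely between libraries. The summed choroid plexus markers ranged from 33.8 to 1594 CPM in WT, 38.9 to 1851 in Msh3-/-, 50.6 to 1860 in zQ175 and 46.4 to 2999 in zQ175:Msh3-/- mice, and the summed cortical excitatory neuron markers from 47.8 to 307 CPM in WT, 50.4 to 460 in Msh3-/-, 39.3 to 397 in zQ175 and 133 to 664 in zQ175:Msh3-/- mice. The median cortical sum was 198 CPM in WT against 270 in zQ175 mice, and 216 in Msh3-/- against 329 in zQ175:Msh3-/- mice, and none of the 6 cortical markers was called in zQ175 against WT, where their median log2 fold change was 0.61.

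The gamma cluster was the most strongly expressed. Levels compared between genes are in TPM, which sum to 1000000 in each mouse and allow for gene length, as means over the 32 mice. The order was led by 3 C-type members of the gamma cluster, Pcdhgc5 at 103 TPM, Pcdhgc3 at 74.7 TPM and Pcdhgc4 at 36.9 TPM. They made up 19.3%, 14.0% and 6.93% of that cluster's TPM. Pcdhgb6 followed at 30.9 TPM, and the median gamma member lay at 17.0 TPM. In the alpha cluster the C-type member Pcdhac2, at 24.8 TPM, held 36.0% of the cluster's TPM, ahead of Pcdha12 at 8.17 TPM and Pcdha4 at 6.28 TPM. The other alpha C-type member, Pcdhac1, was at 1.79 TPM, and the median alpha member at 2.90 TPM. In the beta cluster Pcdhb9 was at 13.3 TPM, Pcdhb20 at 12.5 TPM and Pcdhb17 at 10.9 TPM, with a median of 4.78 TPM. Pcdhb1 was lowest of all at 0.295 TPM, and between 0 and 0.856 CPM in single mice.

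**Figure D1:**
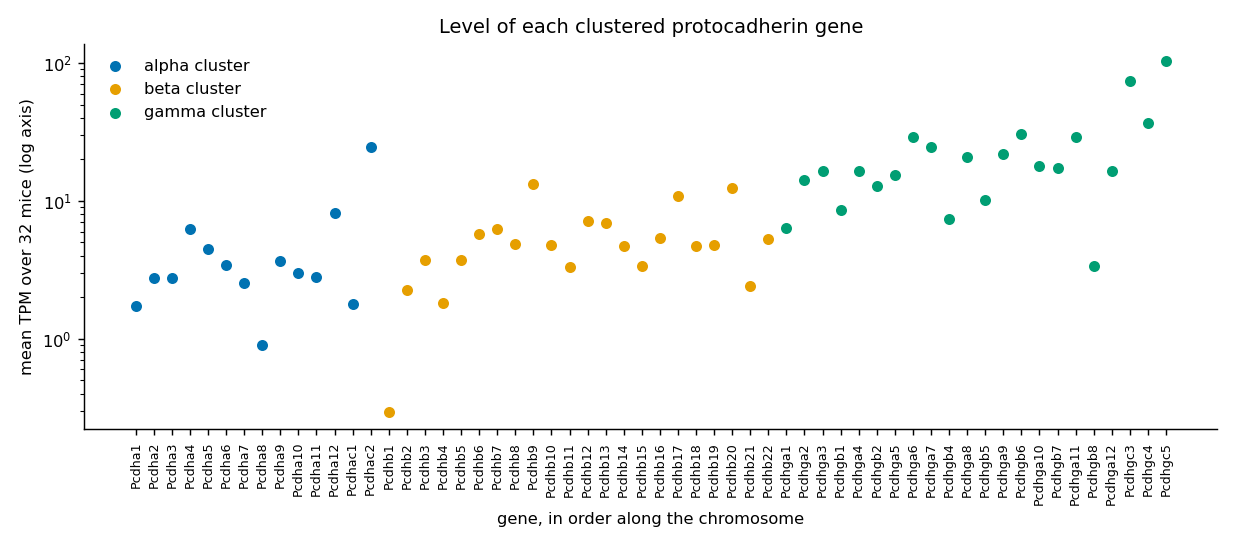
Mean TPM over 32 mice (log axis) of the 58 clustered protocadherin genes in their order along the chromosome, coloured by cluster. The C-type members Pcdhac2, Pcdhgc3, Pcdhgc4 and Pcdhgc5 stand at the ends of the alpha and gamma clusters, from 24.8 to 103 TPM.

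Mice of one group varied more in these genes than in the median gene. The median biological coefficient of variation was 0.112 over the 57 members and 0.0794 over all genes tested, and 31 members lay above the trend for their expression level, against 19.6% of all genes. The most variable were Pcdhgc4, at 0.457, and the weakly expressed Pcdha8, at 0.449. Sex was not in this model, and Pcdha8 lay between 1.06 and 2.91 CPM in WT females and between 0.731 and 1.21 CPM in WT males. Pcdhgc4 ran from 13.3 to 73.8 CPM, with a median of 33.0, in WT mice, and from 26 to 79.2 CPM, with a median of 43.3, in zQ175 mice. By contrast its neighbour Pcdhgc5 stayed between 173 and 206 CPM in WT and between 158 and 202 CPM in zQ175 mice.

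The first comparison asked which members differ between zQ175 and WT striatum. The beta cluster was higher as a whole, the alpha cluster was higher in part, and the gamma cluster split, with genes at its upstream end higher, a group in its middle lower, and its C-type genes showing no called change. With edgeR (quasi-likelihood, Benjamini-Hochberg over all genes), called meaning an adjusted p below 0.05 and at least a 1.2-fold change, 28 of the 57 members were called, 23 higher and 5 lower. Over all 16610 genes 11.6% were called, 4.7% higher and 6.89% lower. The called members were 5 of 14 alpha genes, all higher, 15 of 21 beta genes, of which 14 were higher, and 8 of 22 gamma genes, 4 in each direction. The median log2 fold change was 0.26 in the alpha, 0.40 in the beta and -0.02 in the gamma cluster, beside 0.01 over all genes. The differences between the clusters themselves were not tested. In bulk tissue, fewer cells of a type and less RNA per cell cannot be told apart.

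Summed over its members, the beta cluster lay between 165 and 206 CPM, with a median of 179, in WT mice, and between 215 and 258 CPM, with a median of 231, in zQ175 mice. Every zQ175 mouse was above every WT mouse, and the difference of the mean log2 sums was 0.36 with a pooled SD of 0.10. The alpha sum was 143 to 160 CPM, with a median of 147, in WT and 149 to 184 CPM, with a median of 170, in zQ175 mice. Here the groups overlapped, with 6 of the 8 zQ175 mice above all WT mice, and the log2 difference was 0.18 with a pooled SD of 0.08. For Pcdhac2 alone, the only alpha member with under 50% of its 150-base windows shared with other genes, it was 0.0912. That cut is narrow, since the lowest share among alpha members was 47.3% and the median 54.4%. Pcdhac2 is also a C-type gene that was not called. The part of shared sequence in the alpha difference was therefore not tested. For the gamma cluster the sums were 946 to 1085 CPM in WT and 960 to 1063 CPM in zQ175 mice, which overlapped throughout, and the log2 difference of -0.03 was smaller than the SD of 0.06. No test was run on these sums.

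**Figure D2:**
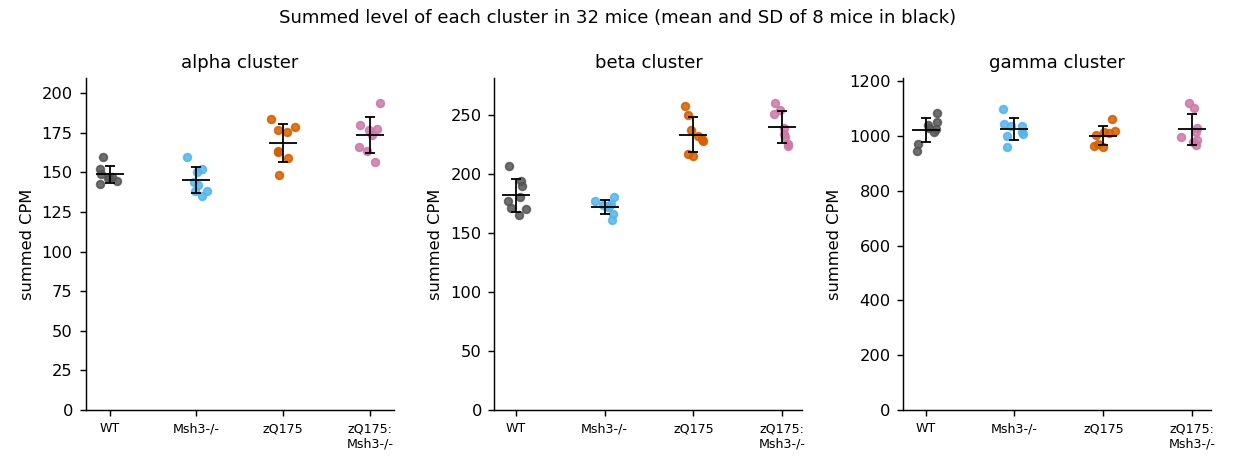
Summed CPM of the alpha, beta and gamma cluster members in each of 32 mice by genotype, with the mean and SD of 8 mice in black. The beta sums of the zQ175 and zQ175:Msh3-/- mice (215 to 260 CPM) all lie above those of the WT and Msh3-/- mice (161 to 206 CPM), and the gamma sums overlap between all 4 groups.

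Among the beta genes, each of which encodes a protocadherin without the shared tail, Pcdhb9 was the most abundant and had the smallest adjusted p. It lay between 12.4 and 14.0 CPM, with a median of 13.2, in WT mice and between 19.5 and 22.2 CPM, with a median of 20.8, in zQ175 mice. The groups did not overlap, and the change was 1.58-fold (log2 0.66 ± 0.06 SE, adjusted p = 1.4e-11, edgeR). Pcdhb3 rose from 3.48 to 5.43 CPM, with a median of 4.65, in WT mice to 5.91 to 10.4 CPM, with a median of 7.59, in zQ175 mice (1.70-fold, log2 SE 0.09, adjusted p = 3.04e-08). Pcdhb12 rose 1.68-fold, from a median of 7.02 CPM (4.67 to 7.57) to one of 11.6 CPM (9.6 to 13.3), with an adjusted p of 3.36e-08 in edgeR, and part of its exon overlaps a gene on the opposite strand. Again all 8 zQ175 mice were above all 8 WT mice for both genes.

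At the downstream end of the beta cluster, Pcdhb16, Pcdhb19, Pcdhb20 and Pcdhb22 rose by 1.43-, 1.42-, 1.32- and 1.43-fold. Pcdhb18, which lies between Pcdhb16 and Pcdhb19, was not called. For Pcdhb22 the range was 10.1 to 12.5 CPM in WT and 15 to 19.4 CPM in zQ175 mice. That of Pcdhb16 was 8.58 to 10.7 CPM in WT and 12 to 15.4 CPM in zQ175 mice. The other abundant gene of this stretch, Pcdhb17, rose 1.27-fold, from 15.5 to 21.8 CPM in WT to 21.4 to 30.0 CPM in zQ175 mice, and here the ranges overlapped at their edges. Pcdhb5, towards the upstream end, rose 1.46-fold from 4.44 to 5.40 CPM to 5.81 to 8.42 CPM. In all, 9 beta genes had zQ175 mice wholly above WT mice, out of 12 members, and 6.63% of all genes, whose groups did not overlap in either direction.

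Pcdhb8 went the other way. It lay between 4.65 and 10.3 CPM, with a median of 7.42, in WT mice and between 3.56 and 7.03 CPM, with a median of 4.41, in zQ175 mice, a fall to 0.662-fold (log2 SE 0.16, adjusted p = 0.00409, edgeR). The groups overlapped, and the call was lost in males alone and in the smaller subset of mice whose cortical marker sums lay in a range shared by all groups. Pcdhb6 gave 6.09 to 12 CPM in WT and 6.47 to 10.9 CPM in zQ175 mice, with a log2 fold change of 0.05 ± 0.14 SE. Pcdhb10, Pcdhb11, Pcdhb14, Pcdhb15 and Pcdhb18 had log2 fold changes of 0.10, 0.09, 0.05, 0.27 and 0.12 and were not called either.

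**Figure D3:**
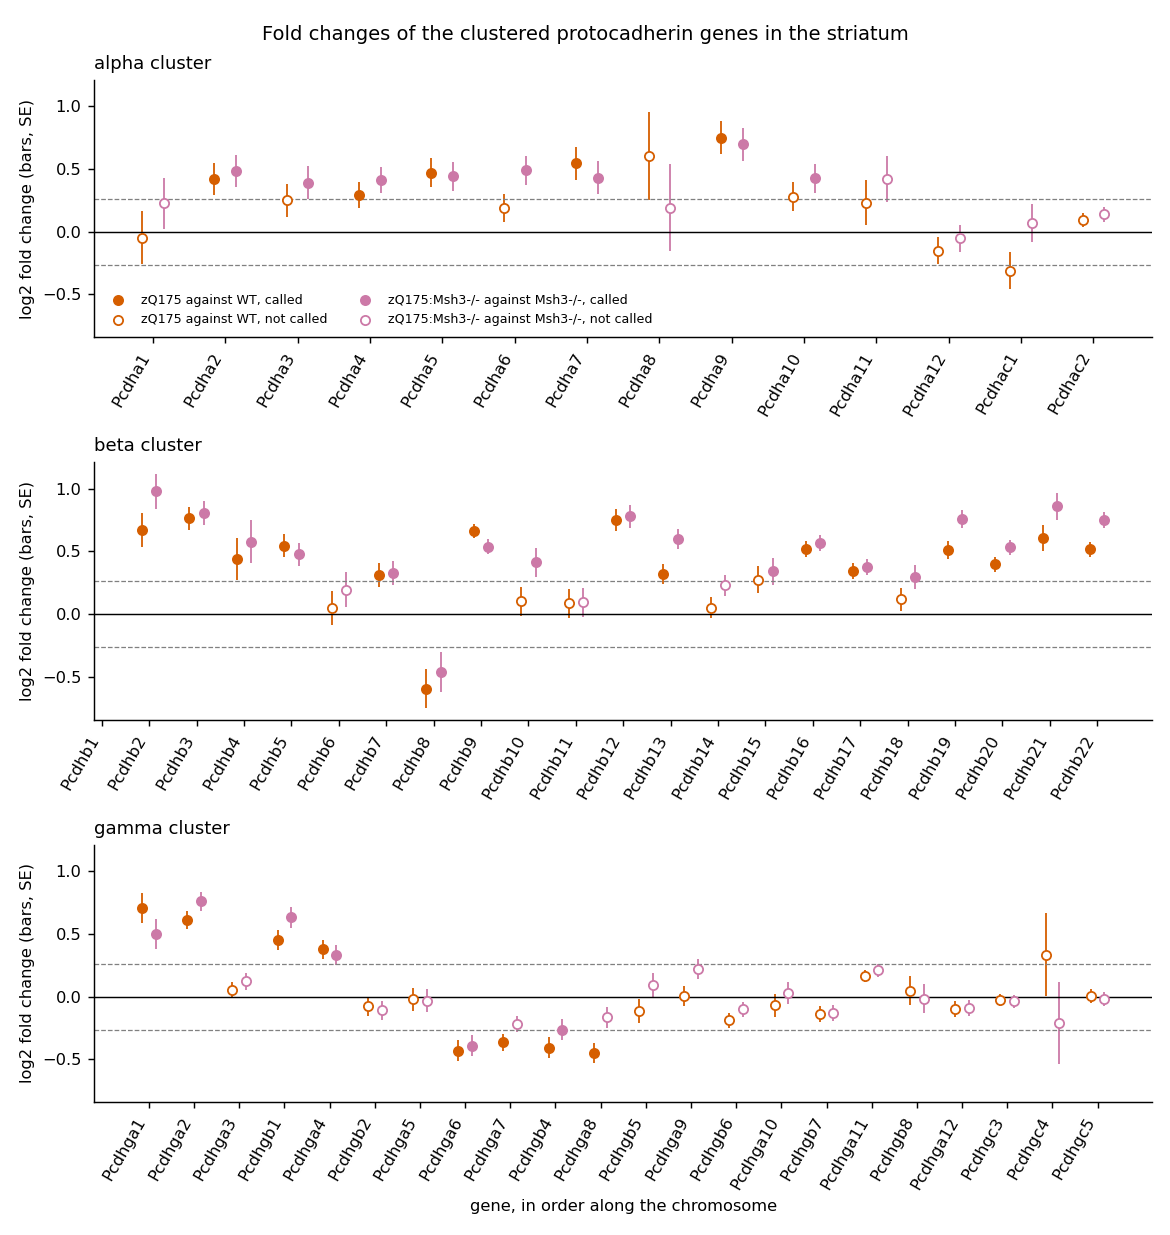
Log2 fold change with its standard error for each member, in order along the chromosome within the alpha, beta and gamma clusters, for zQ175 against WT and for zQ175:Msh3-/- against Msh3-/-. Filled points passed an adjusted p of 0.05 and a 1.2-fold change (dashed lines). Most beta genes are higher and Pcdhb8 is lower in both comparisons. In the gamma cluster Pcdhga6, Pcdhga7, Pcdhgb4 and Pcdhga8 are called lower for zQ175 against WT, and only Pcdhga6 and Pcdhgb4 of these on the Msh3-null background; Pcdhb1 was not tested.

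In the gamma cluster the called genes followed the order of the genes. The genes at its upstream end that rose were Pcdhga1, Pcdhga2, Pcdhgb1 and Pcdhga4. Pcdhga2 lay between 18.8 and 24.5 CPM, with a median of 21.8, in WT mice and between 28.6 and 39.7 CPM, with a median of 31.5, in zQ175 mice. These groups did not overlap (1.53-fold, log2 0.61 ± 0.07 SE, adjusted p = 6.53e-08, edgeR). Pcdhga1 rose 1.63-fold, Pcdhgb1 1.37-fold and Pcdhga4 1.30-fold, whereas Pcdhga3, which lies among them, had a log2 fold change of 0.05 ± 0.07 SE.

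The genes that fell, Pcdhga6, Pcdhga7, Pcdhgb4 and Pcdhga8, were 4 consecutive genes. Pcdhga6 lay between 54.1 and 77.4 CPM, with a median of 70.5, in WT mice and between 39.5 and 62.2 CPM, with a median of 50.1, in zQ175 mice. Its groups overlapped at their edges (0.741-fold, log2 SE 0.08, adjusted p = 0.000214, edgeR). Pcdhga8 was the only member whose zQ175 mice were all below the WT mice, at 31.1 to 39.7 CPM against 40.9 to 59.0 CPM, a fall to 0.732-fold (adjusted p = 6.83e-05, edgeR). Pcdhga7 fell to 0.777-fold and Pcdhgb4 to 0.754-fold. Further downstream no gene was called, although Pcdhgb6, at a log2 fold change of -0.19, and Pcdhga11, at 0.16, had adjusted p-values of 0.0177 and 0.0134 with changes under 1.2-fold. This description by position was made after the values were seen.

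In the alpha cluster, whose shared tail binds the Fyn and Pyk2 kinases, the largest called change was that of Pcdha9. It lay between 4.47 and 7.52 CPM, with a median of 6.12, in WT mice and between 7.27 and 12.4 CPM, with a median of 10.6, in zQ175 mice, so that only the edges overlapped. The change was 1.68-fold (log2 0.75 ± 0.13 SE, adjusted p = 4.91e-05, edgeR). Pcdha2 rose 1.34-fold, Pcdha4 1.23-fold, Pcdha5 1.39-fold and Pcdha7 1.46-fold. No alpha gene had groups that did not overlap, and with 33.4 to 312 mean counts for the alpha genes other than Pcdhac2, their standard errors, with a median of 0.13, were wider than the median of 0.09 among the beta genes. Pcdha3, Pcdha6 and Pcdha10, with log2 fold changes of 0.25, 0.19 and 0.28, were not called, nor was Pcdha12, at -0.15 ± 0.11 SE.

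None of the 5 C-type members was called. Pcdhac2 lay between 54.1 and 64.8 CPM in WT and between 51.9 and 72 CPM in zQ175 mice, with a log2 fold change of 0.09 ± 0.06 SE. For Pcdhgc3, at 135 to 157 CPM in WT and 131 to 162 CPM in zQ175 mice, it was -0.03 ± 0.05 SE, and for Pcdhgc5 it was 0.00 ± 0.05 SE. The abundant C-type genes were thus measured more finely than the 1.2-fold threshold, 0.263 on the log2 scale. Pcdhgc4 (0.34 ± 0.33 SE) and Pcdhac1 (-0.31 ± 0.15 SE) were not.

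**Figure D4:**
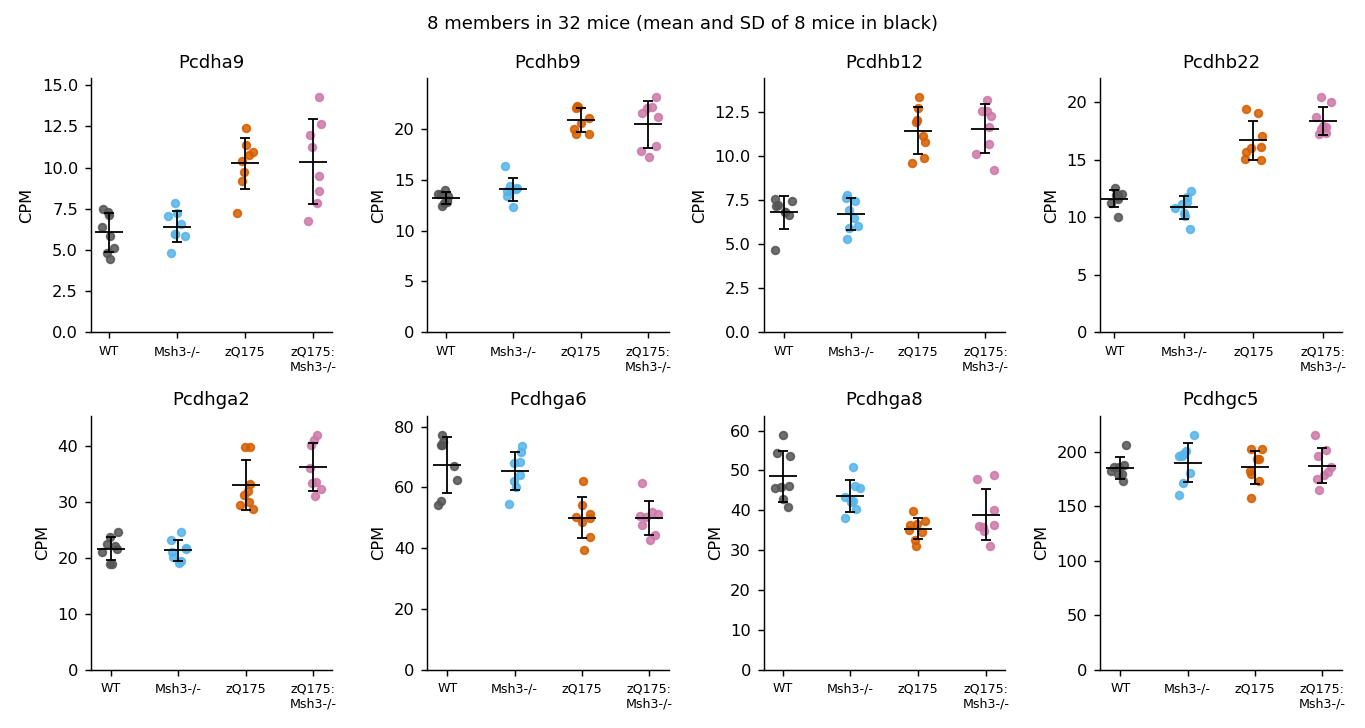
CPM of 8 members in each of 32 mice by genotype, with the mean and SD of 8 mice in black. Pcdhb9, Pcdhb12, Pcdhb22 and Pcdhga2 separate mice with and without the zQ175 allele, Pcdhga6 and Pcdhga8 are lower in zQ175 than in WT mice, and Pcdhgc5 stays between 158 and 216 CPM in all groups.

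The second comparison asked the same question on the Msh3-null background, zQ175:Msh3-/- against Msh3-/-, with no mouse in common with the first. Here 32 of 57 members were called, 29 higher and 3 lower, beside 10.6% of all genes, 4.68% higher and 5.96% lower. By cluster these were 8 of 14 alpha genes, 18 of 21 beta genes and 6 of 22 gamma genes, with median log2 fold changes of 0.42, 0.54 and -0.03. Of the 28 members called in the first comparison, 26 were called in the second, all in the same direction, which is 92.9% of the first list and 81.2% of the second. Over all genes the shared calls were 62.9% of the first list and 68.5% of the second. The signs of the log2 fold change agreed for 50 of 57 members and for 77.8% of all genes, and for every one of the 21 beta genes.

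Pcdhb22 had the smallest adjusted p among the members in this comparison. It lay between 8.97 and 12.3 CPM in Msh3-/- mice and between 17.2 and 20.4 CPM in zQ175:Msh3-/- mice (1.68-fold, log2 SE 0.06, adjusted p = 6.17e-12, edgeR), with no overlap. Pcdhb19 went from 8.99 to 12.2 CPM to 14.5 to 19.6 CPM, a 1.69-fold rise, and Pcdhga2 from 19.0 to 24.6 CPM to 31.0 to 42.0 CPM, also 1.69-fold. Pcdhb9 rose 1.45-fold, Pcdhb3 1.75-fold and Pcdhb12 1.72-fold. In the alpha cluster Pcdha9 rose 1.62-fold, from 4.82 to 7.83 CPM to 6.79 to 14.3 CPM, with overlap. There were 14 members whose mice did not overlap, all of them higher, 12 in the beta and 2 in the gamma cluster, beside 5.39% of all genes.

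The members called in the second comparison and not in the first were Pcdha3, Pcdha6, Pcdha10, Pcdhb10, Pcdhb15 and Pcdhb18. Those called in the first and not in the second were Pcdhga7, at log2 -0.36 and then -0.22, and Pcdhga8, at -0.45 and then -0.17. Pcdhga6 fell in both, to 0.741-fold and 0.763-fold, as did Pcdhb8, to 0.662-fold and 0.725-fold, and Pcdhgb4, to 0.754-fold and 0.832-fold. All 3 lost both calls in the subset of mice whose cortical marker sums lay in a range shared by all groups. That subset held only 3 to 5 mice per group and its markers were still not level. A lost call there does not show that the change is absent. In the second comparison the call of Pcdhb8 held in 7 and that of Pcdhgb4 in 8 of 14 alternative fits. Both were lost in males alone and without the mice high in choroid plexus markers. They were also lost in every fit of limma, a different method, on the TPM of all 32 mice. The interaction, which tests whether the zQ175 effect differs with Msh3, called none of the 57 members and 0% of all genes in edgeR. DESeq2 also called 0, and at an unadjusted p below 0.05 there were 4 members and 737 genes in all. Those members were Pcdhb13, Pcdhb19, Pcdhb22 and Pcdhga8, with unadjusted p of 0.0169, 0.0187, 0.0102 and 0.019 and an adjusted p of at least 0.999 each.

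Loss of Msh3 itself was examined in zQ175:Msh3-/- against zQ175 mice and in Msh3-/- against WT mice. No member was called in either, beside 0.00602% of all genes, a single gene, in each. DESeq2 called no member in either, and at an unadjusted p below 0.05 edgeR gave 4 and 5 members beside 614 and 846 genes. Between zQ175:Msh3-/- and zQ175 mice the members' log2 fold changes ran from -0.16 to 0.50 with a median of 0.05, and the median standard error was 0.09. The beta sum was 215 to 258 CPM in zQ175 and 224 to 260 CPM in zQ175:Msh3-/- mice. Between Msh3-/- and WT mice the range was -0.35 to 0.41, with a median of -0.04, and the beta sum was 161 to 180 CPM in Msh3-/- and 165 to 206 CPM in WT mice. Each of these pairs of groups overlapped. Set directly against WT, a comparison that shares its controls with the first, zQ175:Msh3-/- mice had 27 members higher and 5 lower, beside 12% of all genes called, with median log2 fold changes of 0.35 in the alpha, 0.44 in the beta and -0.01 in the gamma cluster.

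Since the cortical marker sums differed between groups, the counts were also taken in the 16 mice whose summed cortical markers lay in the range shared by all 4 groups, 133 to 307 CPM, a choice made after the data were seen. With 4 zQ175 and 5 WT mice, 18 members were called, 16 higher and 2 lower, beside 7.68% of all genes. The median log2 fold change of the beta genes was 0.44 and of the alpha genes 0.24, where no alpha gene was called. On the Msh3-null background, with 3 and 4 mice, 19 members were called, all higher, beside 6.12% of all genes, and the medians were 0.50 and 0.33. The markers were still not level there, with median cortical sums of 143 CPM in zQ175:Msh3-/- against 216 in Msh3-/- mice and of 257 in zQ175 against 271 in WT mice, and median choroid plexus sums of 186 against 620 CPM and of 129 against 145 CPM. Without the 7 mice above 500 CPM of choroid plexus markers, 26 and 30 members were called, beside 11.5% and 10.3% of all genes. In males alone the 2 comparisons called 19 and 24 members, beside 7.04% and 9.44% of all genes, and in females alone 26 and 24, beside 10.9% and 6.39%. Of the 8 spiny neuron markers 7 were lower in both comparisons. The part of the spiny neuron markers in these results was not tested.

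Sex was compared over the 4 genotypes together. Only 28 genes, 0.169% of those tested, were called between males and females, and 3 of them were clustered protocadherins, all lower in males. Of the 28, 12 lay on the X or Y chromosome, which leaves 16 on other chromosomes, or 0.0997% of the genes tested there. Choroid plexus markers also differed, with a median sum of 145 CPM in males and 79.1 CPM in females and 5 males and 2 females above 500 CPM. None of those 6 markers was called, at a median log2 difference of 1.09. Without those 7 mice 17 genes were called, 0.102% of those tested, and Pcdhga5 was the single member among them. Pcdhga5 lay between 29.6 and 38.5 CPM, with a median of 32.8, in females and between 21.8 and 32.3 CPM, with a median of 28.2, in males. The sexes overlapped in part (0.828-fold, log2 -0.27 ± 0.04 SE, adjusted p = 0.000423, edgeR with genotype in the model), and without the 7 mice the log2 difference was -0.30 (adjusted p = 0.0102). Pcdhb8, the beta gene that fell with zQ175, was at a median of 6.29 CPM (4.17 to 10.3) in females and 4.70 CPM (3.39 to 6.87) in males (0.744-fold, adjusted p = 0.0124). Its call was lost without the 7 mice, at a log2 difference of -0.37 (adjusted p = 0.257). By genotype the male minus female log2 difference was -0.70 in WT against -0.51 in zQ175 mice, and -0.34 in Msh3-/- against -0.12 in zQ175:Msh3-/- mice. The WT females, at 8.44 to 10.3 CPM, were all above the WT males, at 4.65 to 6.39 CPM, and in zQ175 mice the lowest female and the highest male were both at 4.41 CPM, while in Msh3-/- and zQ175:Msh3-/- mice the sexes overlapped. Whether the sex difference varies with genotype was not tested. Pcdhb6 was at a median of 9.38 CPM in females and 7.34 CPM in males (0.789-fold, adjusted p = 0.032), and its call was lost too, at a log2 difference of -0.29 (adjusted p = 0.418). Pcdhb14 and Pcdhb18 had adjusted p-values of 0.0418 and 0.0156 with changes under 1.2-fold, both lower in males. DESeq2 called 4 members for sex, beside 31 of all genes. Pcdha8 was among them and was not called in edgeR. Of all 57 members, 40 had a lower level in males, or 70.2%, against 51.0% of all genes, and without the 7 mice 38, or 66.7%, against 49.7%. The part of choroid plexus tissue in these differences was not tested further. None of 24 regulators of the clusters was called between the sexes.

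**Figure D5:**
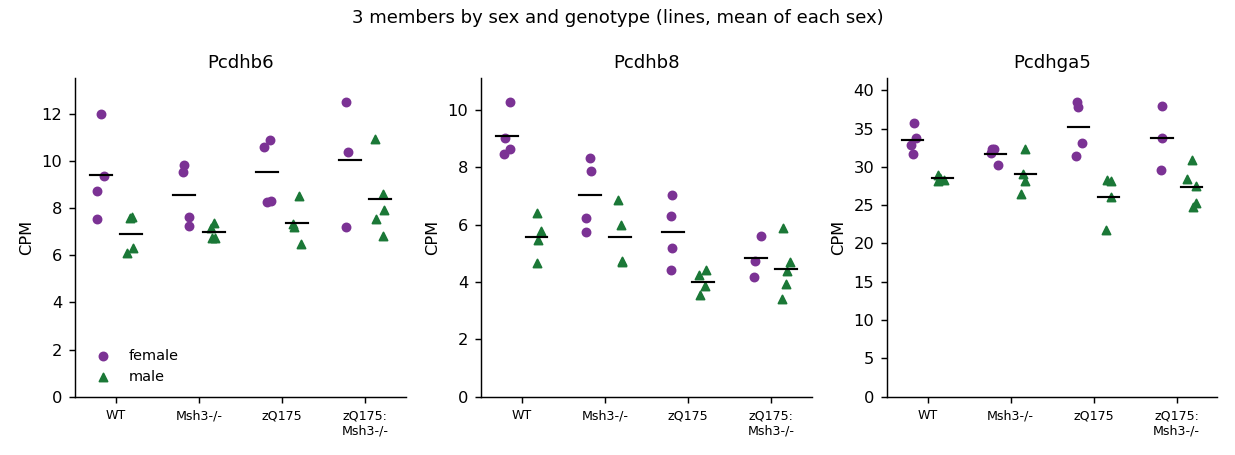
CPM of Pcdhb6, Pcdhb8 and Pcdhga5 in females (circles) and males (triangles) of each genotype, with the mean of each sex as a line. The female mean is above the male mean for each of the 3 genes in all 4 genotypes.

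Of the regulators of the clusters, 24 genes for CTCF, cohesin and DNA and histone methylation, none was called in zQ175 against WT, where 11.6% of all genes were, 4.7% higher and 6.89% lower, and the median log2 fold change was 0.03. Tet1, which oxidises methylated cytosine, was at log2 0.12 (adjusted p = 0.134, edgeR) in that comparison and 0.34 (adjusted p = 7.54e-05) on the Msh3-null background. Non-clustered protocadherins are single genes outside these 3 clusters that encode related adhesion proteins. Of 11 tested, 4 rose in zQ175 mice and none fell, Pcdh20 by log2 0.98, Pcdh19 by 0.73, Pcdh15 by 0.32 and Pcdh10 by 0.30. On the Msh3-null background 5 of them rose and none fell. Of 16 partners of the cytoplasmic tails, 4 fell and 1 rose. Those that fell were Nckap1, Cyfip2 and Abi1, subunits of the WAVE complex that nucleates branched actin, at log2 -0.36, -0.33 and -0.33, and Ptk2b, the Pyk2 kinase, at -0.29. Marcks, a protein kinase C substrate at the membrane, rose by 0.35. Of 18 classical cadherins and catenins 2 rose and 3 fell, with Cdh18 at 0.58, Cdh12 at 0.36, Cdh7 at -0.31, Cdh9 at -0.78 and Cdh4 at -0.80. On the Msh3-null background 1 of the partners rose and 2 fell. Of the cadherins and catenins 4 rose and 2 fell there, beside 10.6% of all genes called.

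Other annotated genes lie among the clusters. Of 27 within their span 9 were tested, and 2 were called in zQ175 against WT, both lower. The long noncoding RNA 3222401L13Rik, just upstream of Pcdhga1, went from 2.62 to 4.62 CPM in WT to 1.87 to 2.59 CPM in zQ175 mice (log2 -0.61, adjusted p = 0.000492, edgeR). The antisense gene Gm37165 lies opposite the stretch from Pcdhga7 to Pcdhga8 and shares at most 536 exonic bases with any 1 member. Gm37165 fell by 0.87 on the log2 scale (adjusted p = 0.00314, edgeR), from a mean of 1.30 to one of 0.725 CPM. Whether the counting used strand is not given in the sources used here, so reads of such a pair cannot be told apart. On the Msh3-null background none of the 9 was called, with 3222401L13Rik at log2 -0.13 (adjusted p = 0.537) and Gm37165 at -0.56 (adjusted p = 0.0692, edgeR). Of the 13 tested genes within 200 kb outside the clusters none was called in this comparison, with log2 fold changes from -0.14 to 0.22. On the Msh3-null background 1 of the 13 was called, Arap3 at log2 -0.32, a gene named after its value was seen.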

How the data were processed

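Per the labels, RNA was extracted from dissected striatum, polyA-selected libraries were sequenced as paired reads of 150 bases, and GRCm38.p6 was used. The aligner, counter and strand setting are not given in the sources used here. The deposited counts are whole reads per gene, with no normalization. The deposited table named FPKM sums to 1000000 in each mouse, so its values were taken as TPM made by the authors. For 36 members with a single transcript the gene length implied by counts and TPM was within 5% of the annotated exon length, shared exons included.

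Genotypes were compared with edgeR 4.0.16 in R 4.3.3 (filterByExpr, trimmed mean of M-values, robust quasi-likelihood test, 1 model of the 4 genotypes), and sexes with genotype in the model. Called means a Benjamini-Hochberg adjusted p below 0.05 over all genes tested and at least a 1.2-fold change. Standard errors are the log2 fold change over the root of the F statistic. The script was tested on simulated data. DESeq2 1.42.0 and limma 3.58.1 on log2(TPM + 0.1) were alternatives. Sources were symbols and coordinates of GENCODE M21 and RefSeq.

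The members and lists were chosen with earlier results of these data known. The text names up to 8 called members of each cluster by adjusted p, the 3 most abundant of each, the C-type members, members called for sex and those left out by the filter. Other members and neighbours named by count or position were chosen after their values were seen.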

Additional observations from a re-analysis of the deposited data

Results flagged for a closer look

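Among 152 sets of 8 mice (35 named members and 3 summed clusters in 4 genotypes), 8 held a mouse far from the others, with a gap to its neighbour over 0.526 of the set's range. Chance gives about 1 such set in 20, or 7.6 here. The low mice were Pcdhb12 in WT (ratio 0.743; 4.67 CPM, the others 6.68 to 7.57), Pcdha5 in Msh3-/- (0.567; 5.95 CPM, the others 8.02 to 10.1) and in zQ175:Msh3-/- (0.632; 6.97 CPM, the others 10.8 to 14.0), Pcdhac2 in zQ175 (0.584; 51.9 CPM, the others 62.8 to 72), Pcdhga7 in zQ175:Msh3-/- (0.771; 37.9 CPM, the others 45.7 to 48.4) and Pcdhb1 in Msh3-/- (0.527; 0.0786 CPM, the others 0.247 to 0.615). The high mice were Pcdhb20 in zQ175 (0.548; 25.8 CPM, the others 19.3 to 22.0) and Pcdhgc5 in WT (0.539; 206 CPM, the others 173 to 187). The 8 values came from 8 different mice. Pcdhb1 did not pass the filter on low counts. With 3 reads making 0.12 to 0.243 CPM in these libraries, its gap is one of few reads.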

How the results depend on the processing

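Leaving out each of the 32 mice in turn gave 26 to 29 called members for zQ175 against WT, 29 to 32 for zQ175:Msh3-/- against Msh3-/-, 29 to 33 for zQ175:Msh3-/- against WT and 0 for the other genotype comparisons. At a fold change of at least 1.5 these 3 comparisons called 9, 10 and 10 members, and the share of all genes at that threshold is not given here. In the first 2, at 1.2-fold and with cortical markers in the shared range, 18 and 19 were called, beside 7.68% and 6.12% of all genes. Without a fold threshold 5 members were called for sex, beside 52 of all genes. The 3 genotype comparisons then gave 30, 36 and 34 members, beside 4398, 4002 and 4469 of all 16610 genes. The replicate numbers did not pair the mice, since same-numbered mice of different genotypes correlated between -0.17 and 0.22, and a replicate block gave 30, 33 and 32 called members and 0 in the other comparisons. No block could be fitted for sex, within which the numbers are nested. DESeq2 gave 27, 32 and 31. The summed alpha difference between zQ175 and WT was 0.18. For Pcdhac2 alone, the only alpha member under the 50% cut on shared sequence, it was 0.0912. This swaps the whole cluster for 1 C-type gene, so it does not test the part of shared sequence. The summed gamma difference was 0.0469 in TPM in place of -0.03 in CPM. Without the 7 mice above 500 CPM of choroid plexus markers, a choice made after the data were seen, 1 member in place of 3 was called for sex. Of 3140 repeats over the named members no direction of a called change was reversed, 80 lost the call and 8 gained it. Those members were named partly for the smallest adjusted p in these data. Some of them had no call to lose, and less stable ones such as Pcdhb4 are outside the count, so it is no rate of lost calls. Without 1 mouse, the call was lost for Pcdha4 in 5 and Pcdhb4 in 13 of the 32 fits of the first comparison (adjusted p up to 0.102 and 0.114), and in the second for Pcdha3 in 6, Pcdhb8 in 6 and Pcdhgb4 in 9 (adjusted p up to 0.0756, 0.0717 and 0.0583), Pcdhb15 in 1 (without zQ175:Msh3-/- male 1, 0.0559) and Pcdhb18 in 1 (without zQ175:Msh3-/- female 1, 0.0581). All other members kept their calls in every such fit of these 2 comparisons.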
